A study of Mus musculus with 12 samples.

Results

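Macrophages of the leptomeninges and of the perivascular spaces, called subdural CNS-associated macrophages (sdCAMs), express CD206 and were sorted for bulk RNA-seq. Their libraries were compared between 2 groups of mice: tdT+ cells that had been spared by a course of BLZ945, or had descended from spared cells, and tdT+ cells of vehicle-treated mice. The comparison uses 8 of the 12 libraries of the series, 4 spared and 4 vehicle, each from its own mouse. It covers the 13724 of 56735 genes that had at least 10 counts in at least 4 of the 12 libraries, and it asks how the transcriptome of spared cells differed from that of cells never exposed to the inhibitor. A gene is called abundant here where its normalised counts average 1000 or more over the 8 libraries. They number 3506, are 25.5% of the genes kept and hold 86.4% of all counts of the 8 libraries.

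All mice, vehicle controls included, were Mrc1CreERT2/CreERT2:R26tdT/tdT. The tamoxifen-inducible Cre sits at Mrc1, the gene of CD206, and removes a stop before the red reporter tdTomato at the Rosa26 locus, so cells that expressed CD206 when tamoxifen was given carry tdT for life and pass it on. Tamoxifen preceded treatment. The CSF-1 receptor inhibitor BLZ945, which enters the brain, was dosed at 200 mg per kg over 7 days, controls received the vehicle for 7 days, and brains without the choroid plexuses were taken 8 weeks later. The label tdT does not separate a cell that survived from the progeny of one, and the labels give no age for these mice. The tdT- libraries of the same BLZ945 mice are the other 4 libraries. They enter here through the gene filter, the size factors and the shared estimate of spread. Some of their list shares and gene means are given below. Vehicle library names carry the word "pre" and BLZ945 names the word "Post", and what these words mean is not given. An effect of treatment cannot be told apart from one of whatever they mark. Mice are named by their labels F1, F2, M1 and M2. A pair of vehicle columns of the count table both carry the mouse label M1, and the one with the library number of the M2 library was taken as vehicle M2, so values of vehicle M1 and M2 rest on that number while the group of both is not in doubt. The vehicle F1 and the BLZ945 F1 mouse are different animals. Where 4 values follow each other, they stand in that order.

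The CSF-1 receptor is the tyrosine kinase on which most tissue macrophages depend for survival, and its inhibition removes the larger part of microglia and border macrophages while the drug is given. Macrophages at the brain surface and along its vessels are long lived, take up material from the cerebrospinal fluid and blood through scavenger receptors, and degrade it in lysosomes. They can be told from microglia of the parenchyma by Mrc1, Cd163, Lyve1, Pf4 and Folr2. A large change in 1 gene is easily seen. A modest change that many abundant genes of one machinery share, such as the ribosome, the respiratory chain or the folding machinery of the endoplasmic reticulum (ER), can only be seen where counts are high and the error is small.

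Libraries held between 19969308 and 23395058 counts and between 14230 and 15817 detected genes, and total counts overlapped between the groups (exact permutation test over 4 against 4 libraries, two-sided p = 0.771, and 0.771 after adjustment over 4 library measures). Replicates resembled each other about as much within a group as between groups, with Pearson's r of log counts between 0.918 and 0.95 within and 0.897 and 0.953 between. The pan-macrophage marker sum ran from 360060.1 to 392889 normalised counts in vehicle and from 371209.5 to 399549 in spared cells, and the border macrophage sum from 253006 to 283470.3 and from 288013 to 367831, so both groups carried the labelled cell type. The tdTomato entry of the count table held 0 counts in all libraries and does not check the sort. The share of counts from the mitochondrial chromosome was 0.702 to 1.13% in vehicle and 0.515 to 0.589% in spared cells, groups that did not overlap (exact permutation test, two-sided p = 0.0286, the smallest that 70 assignments allow, and 0.114 after Benjamini-Hochberg adjustment over the same 4 measures). As these are bulk samples, fewer cells of a type and less RNA per cell cannot be told apart.

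Differences between spared and vehicle cells were small for nearly all abundant genes. The log2 fold change (BLZ945 over vehicle, on the scale of normalised counts) had a median of 0.02 over the abundant genes and 0.03 over all genes. Its absolute value had a median of 0.18 over the abundant genes, and 90% of them differed by less than 1.38-fold. In DESeq2's fit over all 12 libraries, 3088 abundant genes (88.1% of the 3506) were shown to differ by less than 2-fold, by a test of that statement with an adjusted p of at most 0.05. At the same adjusted p for a difference from 0, 31 abundant genes were higher in spared cells (0.884% of the abundant genes) and 40 lower (1.14%). Of these 71 calls, 62 were smaller than 2-fold, 23 of them higher and 39 lower. Over all 13633 genes with an adjusted p, 66 were higher (0.484%) and 65 lower (0.477%), and 23 (0.169%) also had a shrunken change of at least 2-fold, which is the rule by which the study defines a differentially expressed gene.

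The size of a change that could be called followed the counts. The 259 genes with a mean of at least 10000 had a median standard error of 0.12 (log2), and 12 of them were higher and 17 lower, which is 11.2%. From 1000 to 10000 the median standard error was 0.21 and 19 of 3247 genes were higher and 23 lower (1.29%), from 100 to 1000 it was 0.47 with 11 of 5948 higher and 4 lower (0.252%), and from 10 to 100 it was 1.69 with 23 of 3677 higher and 19 lower (1.14%). Of the 100 genes with the highest mean, 15 were called. The smallest change called in an abundant gene was 23.4% upward and -20.1% downward. In all 71 abundant genes called, the 4 vehicle and the 4 BLZ945 values did not overlap. Lack of overlap alone was seen in 193 abundant genes with the BLZ945 mice higher (5.50%) and 232 with the BLZ945 mice lower (6.62%), so it is frequent among genes that were not called.

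The choice of test decides how many of these small changes pass. edgeR's quasi-likelihood test, run on the same counts, passed 9 genes at an adjusted p of 0.05, 7 of them abundant: Jun, Zfp36, Fos, Dusp1, Hpse, Wfdc17 and Fth1. The other two were Meg3 and Cd79b. All 71 abundant calls of DESeq2 had an edgeR unadjusted p of at most 0.0044, while their edgeR adjusted p had a median of 0.245 and reached 0.386. Unadjusted p-values under 0.05 numbered 954 by edgeR and 1109 by DESeq2. The scaling of the libraries also moved the balance of the calls. With total counts as size factors 27 abundant genes were higher and 63 lower, and with size factors that depend on gene length 35 were higher and 24 lower. Among the abundant calls of the fit reported here, 30 were kept in each of 8 fits that left out 1 library, 18 of them higher and 12 lower. In 25, of which 18 were higher and 7 lower, the call held in all 15 DESeq2 settings tried. Below, the log2 fold change stands with its standard error (n = 4 mice a group), adjusted p is that of DESeq2's Wald test unless edgeR is named, and "rose" and "fell" are used for genes called by it.

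**Figure D1:**
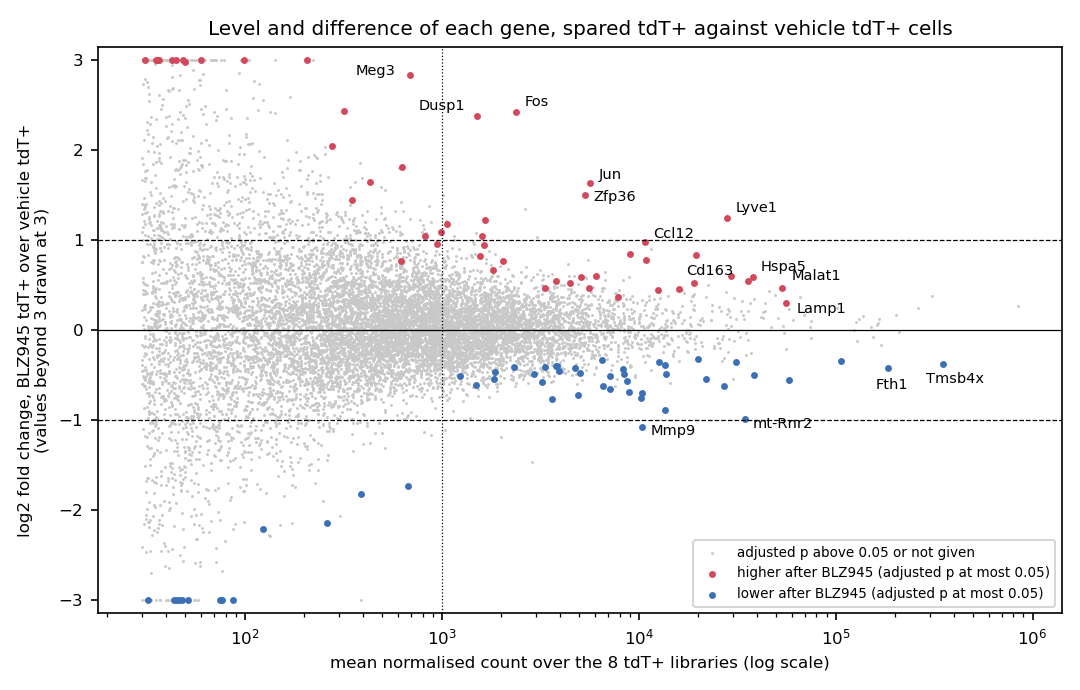
Each point is 1 of the genes kept, with the mean normalised count over the 8 tdT+ libraries on the x axis (log scale) and the log2 fold change of BLZ945 tdT+ over vehicle tdT+ cells on the y axis. Coloured points are the genes called higher or lower. To the right of 1000 counts the cloud narrows around 0, and 62 of the 71 calls there lie between the lines that mark a 2-fold change.

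In the folding machinery of the ER 3 genes rose, each by less than 2-fold. The ER folds secreted and membrane proteins. When unfolded protein builds up, the unfolded protein response raises its chaperones through promoter sites such as the ER stress response element, which is CCAAT and CCACG with 9 bases between them. The 3 genes of this machinery that were called hold that motif in either direction in the 250 bases before the start of the gene. Their promoter sequences are shown, from the RefSeq table on build GRCm38.p6 and 5′ to 3′ on the strand of the gene, with the motif in capitals.
Hspa5 (chr2:34771840-34772089, forward strand): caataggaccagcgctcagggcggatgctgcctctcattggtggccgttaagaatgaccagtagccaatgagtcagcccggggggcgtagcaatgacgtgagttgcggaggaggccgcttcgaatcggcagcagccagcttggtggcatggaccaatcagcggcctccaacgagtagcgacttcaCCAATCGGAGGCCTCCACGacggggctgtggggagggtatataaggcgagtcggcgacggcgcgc
Hsp90b1 (chr10:86705445-86705694, reverse strand): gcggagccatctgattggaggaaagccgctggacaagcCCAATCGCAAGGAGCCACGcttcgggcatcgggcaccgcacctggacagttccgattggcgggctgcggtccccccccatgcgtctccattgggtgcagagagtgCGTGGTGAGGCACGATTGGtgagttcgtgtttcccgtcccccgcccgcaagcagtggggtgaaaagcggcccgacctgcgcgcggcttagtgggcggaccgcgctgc
Creld2 (chr15:88819396-88819645, forward strand): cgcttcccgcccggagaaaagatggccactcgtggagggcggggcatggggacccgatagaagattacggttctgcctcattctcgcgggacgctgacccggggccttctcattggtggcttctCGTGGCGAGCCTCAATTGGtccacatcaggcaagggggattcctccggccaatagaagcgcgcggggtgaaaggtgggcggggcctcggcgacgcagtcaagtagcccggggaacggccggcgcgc
The motif begins 65 bases before the start in Hspa5, 126 in Creld2, and 212 and 107 in Hsp90b1, which holds it in both orientations. Of 32851 promoter windows of 300 bases (250 before and 50 after a start), 39 hold it on either strand (0.119%). Among the 22 genes kept of the unfolded protein response list, 20 had a window and 6 held the motif (Calr, Canx, Creld2, Hspa5, Pdia6 and Syvn1). Of 22 heat shock proteins and chaperones with a window, 3 held it (Dnajc3, Hsp90b1 and Hspa5). A match is a description of the letters and not evidence of binding.

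Hspa5 (BiP, the main HSP70 chaperone of the ER lumen, chr2:34661982-34667559, forward strand, GRCm39) had 29050.4, 35156, 30750.3 and 26459 normalised counts in the vehicle mice and 44026, 43584, 46052 and 48899.8 in the BLZ945 mice. Every spared library was above every vehicle library, and the rise was 1.5-fold (log2 fold change 0.59 ± 0.12, adjusted p = 0.000137). Hsp90b1 (GRP94, the HSP90 chaperone of the ER, chr10:86526073-86541373, reverse strand) had 15469, 17133, 14961 and 15102 in vehicle and 18075, 19559, 27012 and 25494 in spared cells and rose 1.44-fold (0.52 ± 0.15, adjusted p = 0.0414). Its groups did not overlap either, although the nearest pair of libraries lay close together. Creld2, an ER protein induced by ER stress (chr15:88703849-88710886, forward strand), had 1356, 1158, 1207 and 773 in vehicle against 2456, 2113, 2206 and 1873 in spared cells and rose 1.92-fold (0.94 ± 0.20, adjusted p = 0.000888).

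These genes stood in a list that leaned the same way. Of the 22 unfolded protein response genes kept, 2 were called higher (Hspa5 and Creld2) and 0 lower, 21 had a positive log2 fold change, and the list median was 0.35 against 0.03 over all genes. Among the 18 abundant members, 17 were positive and 8 were higher in every spared library than in every vehicle library, against 5.50% of abundant genes. Members that were not called include Pdia3, a disulfide isomerase of the glycoprotein folding cycle (25561 to 32246 in vehicle and 34261 to 39412 in spared cells, 0.32 ± 0.11, adjusted p = 0.203), and the lectin chaperones Calr (0.38 ± 0.13, adjusted p = 0.156) and Canx (0.11 ± 0.11, adjusted p = 1.0). The list took 0.751 to 0.853% of the counts in vehicle and 0.948 to 1.08% in spared cells, without overlap. It took 0.820 to 1.04% in the tdT- cells of the BLZ945 mice.

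In the list of 28 heat shock proteins and chaperones kept, 2 were called higher, and these were the ER members Hspa5 and Hsp90b1. Dnajc3, a co-chaperone of BiP in the same list, was not called (0.36 ± 0.19, adjusted p = 0.683). The cytosolic chaperones Hspa8 (0.28 ± 0.17, adjusted p = 0.813) and Hsp90ab1 (0.27 ± 0.23, adjusted p = 0.965), which fold proteins in every cell, overlapped between the groups, with Hspa8 at 17870.1 to 25862 in vehicle and 21151 to 31091 in spared cells. The list median was 0.21, and the mitochondrial chaperone Hspd1 stood at -0.01. The calls of Hspa5 and Creld2 held in 8 of 8 fits without a library. The call of Hsp90b1 held in 3 of 8, and was lost without vehicle F1, M1 or M2 and without BLZ945 M1 or M2, with log2 fold changes there of 0.43 to 0.52. It was also lost with TMM factors in DESeq2, with total counts as size factors and with length-dependent size factors (0.49, adjusted p = 0.0795). The log2 fold change was larger in M than in F mice by 0.60 for Hsp90b1 and by 0.95 for Hsp90ab1 (adjusted p = 0.00664 and 0.000731 by DESeq2's test of the interaction, and 0.978 for both by edgeR). By edgeR the adjusted p was 0.207 for Hspa5, 0.177 for Creld2 and 0.386 for Hsp90b1.

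**Figure D2:**
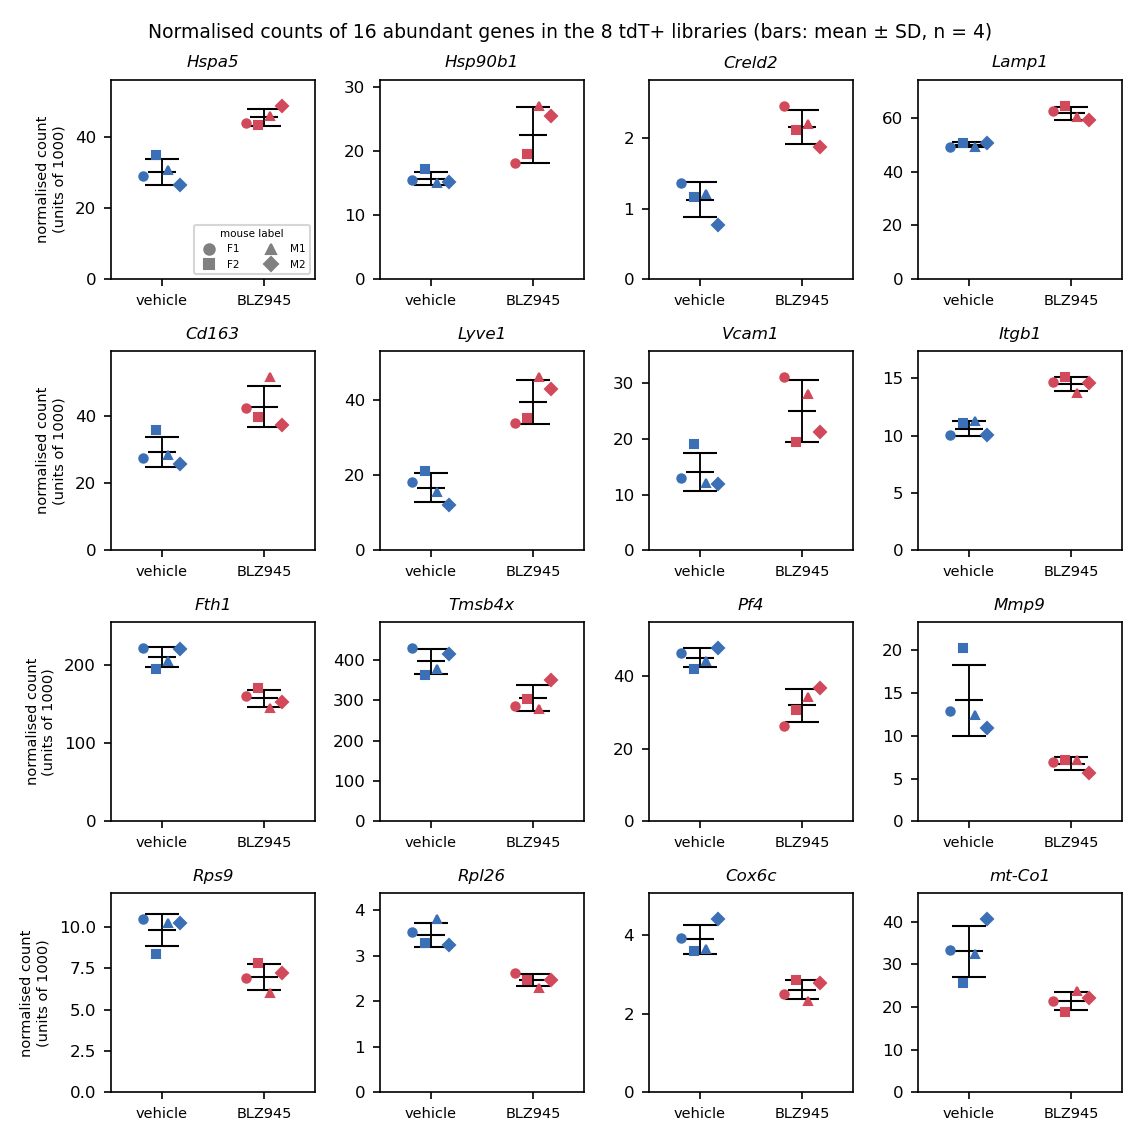
Normalised counts, in units of 1000 and from 0, of 16 abundant genes in the 4 vehicle and the 4 BLZ945 tdT+ libraries. Each point is 1 library with its mouse label, and bars give the mean ± SD (n = 4). All 16 genes were called, and the 2 clouds of points do not overlap in any of them, also where the means differ by less than 2-fold, as for Hspa5 and Fth1.

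Immediate early genes made up the 4 largest changes among abundant genes. These genes are transcribed within minutes of a stimulus, without new protein synthesis, and include the AP-1 subunits Fos and Jun, the MAP kinase phosphatases Dusp1 and Dusp6, and Zfp36, which destabilises cytokine mRNAs. The cyclic AMP response element (TGACGTCA) and the CArG box, the site of serum response factor, are promoter elements through which such genes are switched on. Dusp1 and Zfp36 are shown in the same way as the ER genes.
Dusp1 (chr17:26508473-26508722, reverse strand, cyclic AMP response element in capitals): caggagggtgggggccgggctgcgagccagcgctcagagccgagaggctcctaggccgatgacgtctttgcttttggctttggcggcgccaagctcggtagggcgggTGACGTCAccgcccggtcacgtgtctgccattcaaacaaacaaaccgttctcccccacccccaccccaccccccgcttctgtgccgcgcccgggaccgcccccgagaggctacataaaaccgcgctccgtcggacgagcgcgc
Zfp36 (chr7:28379229-28379478, reverse strand, CArG box in capitals): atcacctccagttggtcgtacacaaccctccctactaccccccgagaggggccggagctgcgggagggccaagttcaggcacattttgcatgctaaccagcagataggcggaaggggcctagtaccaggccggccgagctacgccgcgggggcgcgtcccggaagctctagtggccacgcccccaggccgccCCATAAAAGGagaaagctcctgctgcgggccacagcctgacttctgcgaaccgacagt
The element begins 143 bases before the start of Dusp1 and the CArG box 58 bases before that of Zfp36. On either strand, 588 of the 32851 windows hold the cyclic AMP response element (1.79%) and 535 a CArG box (1.63%). Of 25 immediate early genes with a window, other than AP-1 subunits, 3 hold the former (Btg2, Dusp1 and Ppp1r15a) and 4 the latter (Dusp5, Egr2, Srf and Zfp36), and of 10 AP-1 subunits 0 hold either.

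Fos rose 5.38-fold (2.43 ± 0.31) and Jun 3.11-fold (1.64 ± 0.16). Zfp36 had 2779, 3119.6, 2872 and 2342 normalised counts in vehicle and 8803, 6750.1, 9183 and 6809 in spared cells, a 2.84-fold rise (1.51 ± 0.14, adjusted p = 1.95e-23). Dusp1 had 512, 586, 569 and 287 in vehicle against 2649, 1486, 3879 and 2188 in spared cells (2.38 ± 0.33, adjusted p = 1.27e-09). Both were far apart between groups, yet Dusp1 varied strongly among the spared mice. Dusp1 overlaps Ergic1 on the opposite strand, a gene with a mean of 2146 counts over the 12 libraries against 1701 for Dusp1, and reads over shared exons cannot be assigned without strand. Dusp6, the phosphatase that acts on ERK, rose by less than 2-fold, from 13326, 14197, 12098 and 14336 to 16948, 19817, 19520.2 and 17864 (0.46 ± 0.10, adjusted p = 0.00144).

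The AP-1 subunits and the other immediate early genes leaned upward as lists, with the called genes counted in. Of all genes tested, 47.3% had a negative log2 fold change. Of 10 AP-1 subunits kept, 2 were called higher (Fos and Jun) and 9 were positive, and of 32 other immediate early genes 3 were called higher (Dusp1, Zfp36 and Dusp6) and 22 were positive, with medians of 0.43 and 0.22. Junb, an AP-1 subunit, overlapped between the groups (0.56 ± 0.24, adjusted p = 0.402). Jund (0.23 ± 0.14, adjusted p = 0.801) and Zfp36l1 (0.39 ± 0.17, adjusted p = 0.455) did not overlap, although neither was called. Mcl1, an anti-apoptotic BCL-2 protein (0.24 ± 0.11, adjusted p = 0.558), Klf6 (0.18 ± 0.14, adjusted p = 0.955) and Btg1 (-0.18 ± 0.12, adjusted p = 0.866) were not called. AP-1 subunits together took 0.0351 to 0.0431% of counts in vehicle and 0.0737 to 0.110% in spared cells. In the tdT- cells of the BLZ945 mice they took 0.0786 to 0.0962%, so this rise was not particular to spared cells. Mean normalised counts of Fos, Jun, Zfp36 and Dusp1 were 3589, 6944, 7883 and 1999 in tdT- cells. They were 4014, 8594, 7886 and 2550 in spared cells and 747, 2760, 2778 and 488 in vehicle cells. Of 18 glucocorticoid-induced genes kept, another set of fast-responding genes, 1 was called higher (Dusp1, which is in both sets) and the median was 0.55. BLZ945 M1 stood above the other 3 spared libraries in Jun (11377 against 7364 to 7835). The calls of Fos, Jun, Dusp1, Zfp36 and Dusp6 held in 8 of 8 fits without a library.

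Scavenger receptors and markers of border macrophages rose in part. Cd163, the haemoglobin-haptoglobin receptor (chr6:124281615-124307486, forward strand), had 27419, 35695, 28348 and 25742 in vehicle and 42381, 39633, 51519 and 37376 in spared cells, a rise of 45.8% (0.54 ± 0.13, adjusted p = 0.00366). Folr2, the folate receptor beta, had 3153, 3281, 2736 and 3271 in vehicle against 4099, 5084, 3953 and 5052 in spared cells (0.55 ± 0.15, adjusted p = 0.0451). Lyve1, a hyaluronan receptor, had 18153, 21081, 15504 and 12094 in vehicle against 34029.8, 35227, 46167 and 42944 in spared cells and rose 2.37-fold (1.24 ± 0.20). Its log2 fold change was larger in M than in F mice by 0.88 (adjusted p = 0.00186 by DESeq2's test of the interaction and 0.978 by edgeR). The groups did not overlap in any of the 3, and Folr2 rests on far fewer counts than the others.

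Other members were not called. Of 35 scavenger and endocytic receptors kept, 3 were called higher and 0 lower, 21 were positive and the median was 0.06. Stab1, a large clearance receptor, stood at 41133 to 44869 and, without overlap, at 46518 to 71576 (0.39 ± 0.14, adjusted p = 0.243). Cd36, a receptor for oxidised lipids, stood at 13052 to 20679.6 and 9307 to 13276 (-0.58 ± 0.25, adjusted p = 0.413). Of 31 border macrophage markers, 3 rose (Lyve1, Cd163 and Folr2), 1 fell (Pf4) and the median was 0.12. The share of counts was 1.61 to 1.81% in vehicle and 1.93 to 2.19% in spared cells for the receptors and 7.93 to 8.36% and 8.89 to 9.68% for the markers. In tdT- cells of the BLZ945 mice it was 0.958 to 1.14% for the receptors and 5.60 to 7.11% for the markers. The receptor share of BLZ945 M1 (2.19%) stood apart from the other 3 spared libraries (1.93 to 1.94%). Folr2 kept its call in 1 of 8 fits without a library and lost it without vehicle F1, F2, M1 or M2 and without BLZ945 F1, F2 or M2, with log2 fold changes of 0.49 to 0.59. It was also lost with TMM factors in DESeq2 and with total counts as size factors. Cd163 and Lyve1 kept the call in 8 of 8. The edgeR adjusted p was 0.245 for Cd163, 0.0893 for Lyve1 and 0.332 for Folr2.

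The receptor that BLZ945 blocks was not shown to differ. Csf1r had 154524, 178628, 163409 and 144834 normalised counts in vehicle and 164298, 173777, 171790.1 and 167005 in spared cells (log2 fold change 0.08 ± 0.08, adjusted p = 1.0), and the 95% interval of the fold was 0.940 to 1.18. Of 28 genes of the CSF1 receptor axis and cytokine receptors kept, 1 was called higher: Il10ra, the ligand-binding chain of the IL-10 receptor, with 4193, 4072, 3647 and 4483 in vehicle against 6575, 5426, 6163 and 6471 in spared cells (0.59 ± 0.13, adjusted p = 0.00245). The list median was 0.08.

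Of the lysosomal genes, 2 rose, both by less than 2-fold. Lamp1, a major glycoprotein of the lysosomal membrane, had 49204, 50919, 49229 and 50773 in vehicle and 62518, 64546, 60566 and 59336 in spared cells, 23.4% more (0.30 ± 0.08, adjusted p = 0.0181). Glb1, the lysosomal beta-galactosidase, had 3160.0, 2861, 2528 and 2745 in vehicle against 3877, 4156, 3643 and 3951 in spared cells (0.47 ± 0.11, adjusted p = 0.00477), and overlaps Tmppe on the same strand. The groups did not overlap in either gene. Of 56 lysosomal genes kept, these 2 were called higher, 0 lower, 38 were positive and the median was 0.08. Of the 50 abundant members, 49 were shown to differ by less than 2-fold. The proteases Ctsb (0.25 ± 0.11, adjusted p = 0.465) and Ctsd (0.25 ± 0.15, adjusted p = 0.828), among the most abundant mRNAs of these cells, were higher in every spared library but were not called, and Ctss overlapped (0.09 ± 0.13, adjusted p = 1.0). The list took 6.77 to 7.22% of counts in vehicle and 7.46 to 7.80% in spared cells. Hgsnat, the acetyltransferase of lysosomal heparan sulfate breakdown and not in the list, had 24194, 25223, 24255 and 20009 in vehicle against 30909, 36967, 35825 and 38787 in spared cells (0.61 ± 0.17, adjusted p = 0.0313). Hpse, the heparanase that cuts heparan sulfate, rose 2.06-fold, from 914, 1021, 1122 and 1115 to 2681, 2071, 1731 and 2115 (1.04 ± 0.18, adjusted p = 3.76e-06). Leaving out 1 library at a time ended the calls of Lamp1 without vehicle F1, M1 or M2 or BLZ945 F1, F2 or M1 (0.28 to 0.31), and Hgsnat without vehicle F1, M1 or M2 or BLZ945 F2, M1 or M2 (0.54 to 0.62), with log2 fold changes in brackets. Glb1 and Hpse kept theirs in 8 of 8 fits.

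Of 30 integrin and adhesion genes kept, 3 were called higher and 1 lower. Vcam1, the counter-receptor of integrin alpha4 beta1, had 13051, 19149.5, 12061 and 11907 in vehicle and 31114, 19466, 28153 and 21239.6 in spared cells (0.83 ± 0.19, adjusted p = 0.00391), and vehicle F2 lay far above the other 3 vehicle libraries. Itgb1, the integrin beta1 chain, had 10046, 11074, 11265 and 10066 in vehicle against 14688, 15106, 13706 and 14546 in spared cells (0.45 ± 0.11, adjusted p = 0.00916). The groups did not overlap in either. The fall of Itgb3, a gene with few counts, is given below. The list median was 0.23, and 15 of 17 abundant members were positive with a median of 0.39. With 1 library left out, calls were lost for Vcam1 without BLZ945 F1 (0.71), and Itgb1 without vehicle F1 or M2 or BLZ945 F1, F2 or M2 (0.42 to 0.45).

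Further abundant genes that rose have varied functions. Wfdc17, a secreted protein of macrophages, had 7037, 5677, 6485 and 6727 in vehicle and 12968, 12845, 10054 and 10928 in spared cells (0.85 ± 0.13, adjusted p = 9.26e-08) and passed edgeR's test too (adjusted p = 0.0358). Abca9, a lipid transporter of the ABC family, had 7499, 11141, 8167 and 5391 in vehicle against 13186, 13919, 14593 and 13559.5 in spared cells (0.78 ± 0.18, adjusted p = 0.00442). Neither overlapped between groups. Acsl3, a long-chain acyl-CoA synthetase at lipid droplets, had 918, 1209, 757 and 1092 in vehicle against 2030.0, 1776, 2369.8 and 3159 in spared cells (1.23 ± 0.27, adjusted p = 0.00118). The splicing factor Rbm39 (0.61 ± 0.13, adjusted p = 0.000456), the nuclear long noncoding RNA Malat1 (0.47 ± 0.13, adjusted p = 0.0298) and the SLAM-family receptors Cd84 (0.37 ± 0.10, adjusted p = 0.0479) and Ly9 (1.18 ± 0.31, adjusted p = 0.0155) rose as well. Malat1 took 0.203 to 0.254% of counts in vehicle and 0.247 to 0.348% in spared cells. Fits without 1 library lost the calls of Malat1 without vehicle F1, F2 or M2 or BLZ945 F1, M1 or M2 (0.38 to 0.49), Cd84 without vehicle F1, M1 or M2 or BLZ945 F1, F2 or M2 (0.29 to 0.40), and Ly9 without vehicle M2 or BLZ945 F1 or F2 (0.97 to 1.13), and kept those of Wfdc17, Abca9, Acsl3 and Rbm39 in 8 of 8. The call of Cd84 was also lost with TMM factors, with total counts, with the letter of the mouse label as covariate and with length-dependent size factors (0.30), and that of Malat1 with the last of these (0.38).

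Ribosomal protein mRNAs were lower in spared cells, nearly as a whole set and by less than 2-fold. These short, abundant mRNAs encode the structural proteins of the cytosolic ribosome. Rps9 (chr7:3706992-3709896, forward strand), of the small subunit, had 10455, 8369, 10225 and 10262 normalised counts in vehicle and 6901, 7837, 5986 and 7233 in spared cells (-0.49 ± 0.12, adjusted p = 0.0087). Rpl26, of the large subunit, had 3509, 3268, 3795 and 3243 in vehicle against 2617, 2464, 2293 and 2454 in spared cells (-0.49 ± 0.12, adjusted p = 0.011). Every spared library lay below every vehicle library in both. Rplp0, a protein of the ribosomal stalk, had 9707, 8405, 9080.3 and 11254 in vehicle against 7472, 7389, 6418 and 7275 in spared cells (-0.43 ± 0.12, adjusted p = 0.0451).

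Of the 82 ribosomal protein genes kept, 8 fell, among them Rps29, Rps14, Rps9, Rpl26, Rplp1 and Rplp0, 0 rose, and 2 had a positive log2 fold change (Rpl4 and Rpl39l). The list median was -0.48, a change of -28.3%, against 0.03 over all genes. Of the 73 abundant members, 72 were negative against 47.7% of all abundant genes, 51 were lower in every spared library than in every vehicle library against 6.62%, and 57 were shown to differ by less than 2-fold. Genes that were not called had values close to those that were, such as Rps3 (-0.41 ± 0.12, adjusted p = 0.059), Rpl13 (-0.38 ± 0.13, adjusted p = 0.161) and Rpl32 (-0.52 ± 0.16, adjusted p = 0.0905). The list took 1.37 to 1.70% of counts in vehicle, 1.04 to 1.18% in spared cells and 1.18 to 1.96% in the tdT- cells of the BLZ945 mice. The tdT- range overlaps that of vehicle, and every tdT- library lay above every spared library. The lowest tdT- library (1.181%) was close to the highest spared library (1.177%).

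Single libraries decided how many ribosomal genes were called. Leaving out vehicle F1 or BLZ945 M1 left 1 call, leaving out vehicle M1 or M2 or BLZ945 M2 left 3, BLZ945 F1 left 4, and leaving out vehicle F2 gave 13, while the list median stayed between -0.55 and -0.43. Vehicle F2 had the lowest Rps9 and Rpl32 of the vehicle group (8369 against 10225 to 10455, and 9701 against 11763 to 11970). In fits without 1 library, calls were lost for Rps14 without vehicle F1 or BLZ945 F1, M1 or M2 (-0.50 to -0.45), Rps9 without vehicle F1, M1 or M2 or BLZ945 M1 (-0.47 to -0.42), Rpl26 without vehicle F1 or M1 or BLZ945 M1 or M2 (-0.49 to -0.44), Rplp1 without vehicle F1, M1 or M2 or BLZ945 F1, M1 or M2 (-0.50 to -0.44), Rplp0 without vehicle F1, M1 or M2 or BLZ945 F1, F2, M1 or M2 (-0.46 to -0.35), and Rps29 without vehicle F1, M1 or M2 or BLZ945 F1, F2, M1 or M2 (-0.72 to -0.66). The median edgeR adjusted p of all 71 abundant calls was 0.245, and that of Rps9 was 0.244 and of Rpl26 0.244. Reads that map equally well to the many processed copies of ribosomal protein genes were not counted, so these levels are of the uniquely placed reads.

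**Figure D3:**
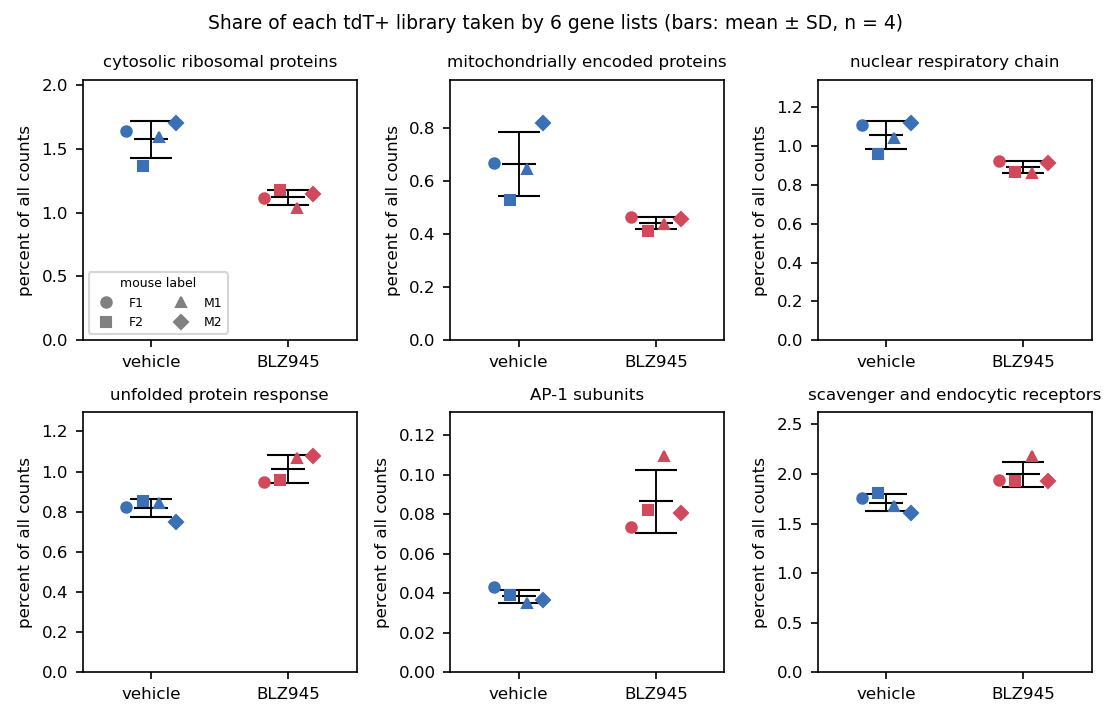
Percent of all counts of a library, from 0, taken by 6 gene lists in the 4 vehicle and the 4 BLZ945 tdT+ libraries, with 1 point a library and bars for the mean ± SD (n = 4). Ribosomal proteins run from 1.37 to 1.70% in vehicle and from 1.04 to 1.18% in spared cells, and the unfolded protein response list runs from 0.751 to 0.853 and from 0.948 to 1.08%.

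Transcripts of the respiratory chain were lower from both genomes. The mitochondrial chromosome encodes 13 subunits of complexes I, III, IV and V, and 8 of these genes were kept. mt-Co1, the catalytic subunit of complex IV, had 33446, 25716, 32421 and 40578 in vehicle and 21424, 18801, 23884 and 22055 in spared cells (-0.62 ± 0.16, adjusted p = 0.0125). mt-Nd1 (-0.54 ± 0.14, adjusted p = 0.0125) and mt-Nd2 (-0.69 ± 0.19, adjusted p = 0.0298), both of complex I, fell too. The groups did not overlap in any of the 3. All 8 were negative, with a median of -0.53, and the share of counts was 0.527 to 0.818% in vehicle and 0.412 to 0.463% in spared cells. It was 0.259 to 0.478% in the tdT- cells of the BLZ945 mice, also below the vehicle range. The mitochondrial rRNA mt-Rnr2 had 46495, 33279, 45064 and 58986 in vehicle against 22831, 19976, 23798 and 25757 in spared cells (-0.99 ± 0.21, adjusted p = 0.000461).

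Of 78 nuclear genes of the respiratory chain, 3 fell and 0 rose. Cox6c, a small subunit of complex IV, had 3929.9, 3587, 3652 and 4401 in vehicle and 2491, 2854, 2323 and 2772 in spared cells (-0.58 ± 0.13, adjusted p = 0.00214). Cox6b1 (-0.42 ± 0.11, adjusted p = 0.0153), of the same complex, and Uqcr10 (-0.47 ± 0.13, adjusted p = 0.0251), of complex III, were the others. The median was -0.25, 13 of 78 were positive, and of the 69 abundant members 58 were negative and 67 were shown to differ by less than 2-fold. The large catalytic subunits Atp5a1 (-0.09 ± 0.06, adjusted p = 0.90) and Atp5b (0.03 ± 0.08, adjusted p = 1.0) of the ATP synthase and Sdha (0.11 ± 0.15, adjusted p = 1.0) of complex II overlapped between the groups. The share of counts was 0.961 to 1.12% in vehicle, 0.862 to 0.922% in spared cells and 0.928 to 1.03% in tdT- cells.

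These calls also depend on single libraries. The number of mitochondrially encoded genes called was 0 without vehicle M2, 1 without vehicle F1 or M1 or BLZ945 F2, M1 or M2, and 4 without vehicle F2. That of nuclear respiratory chain genes was 1 without vehicle F1, M1 or M2 or BLZ945 M1, and 8 without vehicle F2. Calls held in 8 of 8 fits for Cox6c and mt-Rnr2, and that of mt-Rnr2 was lost with the letter of the mouse label as covariate. They were lost for mt-Co1 without vehicle F1 or M2 or BLZ945 F1 or F2 (-0.62 to -0.50), mt-Nd1 without vehicle M1 or M2 or BLZ945 M1 or M2 (-0.53 to -0.45), mt-Nd2 without vehicle F1, M1 or M2 or BLZ945 F2, M1 or M2 (-0.74 to -0.57), Cox6b1 without vehicle F1, M1 or M2 or BLZ945 M1 or M2 (-0.44 to -0.36), and Uqcr10 without vehicle F1, F2, M1 or M2 or BLZ945 F1, F2, M1 or M2 (-0.49 to -0.44). By edgeR, Cox6c had an adjusted p of 0.207 and mt-Co1 of 0.31.

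Gene length moved with the direction of the change. The 40 abundant genes called lower had a median summed exon length of 1696.5 bases, the 31 called higher one of 3470.0, and all abundant genes one of 4302. Among abundant genes under 750 bases the median log2 fold change was -0.40 (40 genes), and it was -0.22 from 750 to 1500 (214 genes), -0.05 from 1500 to 3000 (751 genes), 0.04 from 3000 to 6000 (1414 genes) and 0.08 above 6000 (1087 genes). Without the ribosomal and respiratory chain lists the medians of the first 2 classes were -0.24 (26 genes) and -0.17 (168 genes). The median length was 1736.5 bases for the ribosomal proteins, 1091 for the mitochondrially encoded and 1737 for the nuclear respiratory chain genes. With size factors that depend on gene length, added after the data were seen, the medians of these lists were -0.34 (ribosomal proteins, 5 genes called), -0.29 (mitochondrially encoded, 0 called) and -0.14 (nuclear respiratory chain, 1 called). Of the 71 abundant calls 42 were kept under that scaling, 27 higher and 15 lower. Rps9 (-0.45, adjusted p = 0.0275), Rps14, Cox6c and Fth1 were among those kept. Rpl26 (-0.34, adjusted p = 0.261), Rps29, Rplp1, Rplp0, mt-Co1, mt-Nd1, mt-Nd2, Cox6b1 and Uqcr10 were not. The part of length in these differences was not tested beyond this scaling.

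**Figure D4:**
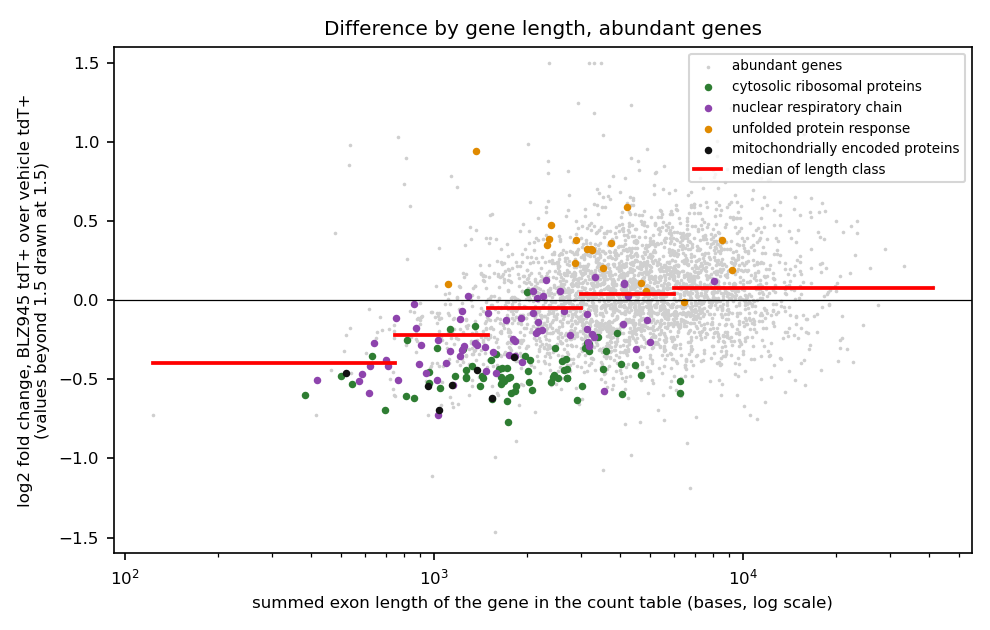
Each point is 1 abundant gene, with its summed exon length in bases on the x axis (log scale) and the log2 fold change of BLZ945 tdT+ over vehicle tdT+ cells on the y axis. Coloured points are the lists named in the legend and red lines the medians of the length classes. The class medians rise from -0.40 in genes under 750 bases to 0.08 in genes above 6000 bases.

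The ferritin chains fell. Fth1, the heavy chain with ferroxidase activity (chr19:9957962-9962462, forward strand), is among the most abundant mRNAs of these cells and had 221452, 195311, 205164 and 220453 normalised counts in vehicle and 160332, 170259.6, 145063 and 153149 in spared cells. The groups were well apart, the change was -25.4% (log2 fold change -0.42 ± 0.07, adjusted p = 1.73e-07), and it passed edgeR's test (adjusted p = 0.0427), was kept whichever of the 8 libraries was left out, and was -0.44 with length-dependent size factors. Ftl1, the light chain, had 119600.0, 104623, 118964 and 134263 in vehicle against 94752, 102277, 87858 and 91879 in spared cells (-0.34 ± 0.10, adjusted p = 0.0411). Its call was lost without vehicle F1, M1 or M2 and without BLZ945 F1, M1 or M2 (-0.35 to -0.28). With length-dependent size factors it stood at -0.17 and was not called (adjusted p = 0.699). Of 28 iron and heme genes kept, 2 fell and 1 rose (Cd163), and the median was 0.04. The iron exporter Slc40a1 (-0.24 ± 0.19, adjusted p = 0.962) and transferrin, Trf (0.13 ± 0.09, adjusted p = 0.91), overlapped between the groups. The list took 2.82 to 3.02% of counts in vehicle and 2.47 to 2.65% in spared cells.

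Other abundant transcripts that fell have varied functions. Pf4, a chemokine and border macrophage marker, had 46547, 41990.1, 44254 and 47744 in vehicle and 26163, 30717, 34253 and 36756 in spared cells (-0.50 ± 0.12, adjusted p = 0.00417). Tmsb4x, which binds actin monomers, had 429116, 361546, 378545 and 415982 in vehicle against 286376, 303468, 278689.7 and 350223 in spared cells (-0.38 ± 0.09, adjusted p = 0.00577). Neither overlapped between groups. Mmp9, a gelatinase, had 12915, 20264, 12496 and 10946 in vehicle against 6935, 7148, 7205 and 5619 in spared cells, a fall to 0.475 of the vehicle level (-1.07 ± 0.21, adjusted p = 9.35e-05), and is the only abundant gene that fell by at least 2-fold. Tmem176a (-0.49 ± 0.11, adjusted p = 0.0015) and Tmem176b (-0.36 ± 0.10, adjusted p = 0.035) fell, and as they overlap on opposite strands their reads cannot be fully separated. Ly6e (-0.56 ± 0.15, adjusted p = 0.0302), the autophagy protein Gabarap (-0.38 ± 0.09, adjusted p = 0.00198), the actin-binding Cotl1 (-0.35 ± 0.08, adjusted p = 0.0024) and cyclophilin A, Ppia (-0.32 ± 0.08, adjusted p = 0.0101), fell as well. The 18S rRNA entry Rn18s-rs5 fell (-0.89 ± 0.21, adjusted p = 0.00417). Tmsb4x, Ppia, Fth1, Ftl1 and Gabarap have processed copies elsewhere in the genome, and reads shared with these were not counted.

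When 1 library was left out, calls were lost for Tmsb4x without vehicle F1 or M2 or BLZ945 F1 or M1 (-0.36 to -0.34), Ly6e without vehicle F1, M1 or M2 or BLZ945 F1, F2 or M1 (-0.59 to -0.46), Tmem176b without vehicle F1, F2 or M1 or BLZ945 F1 or M1 (-0.37 to -0.31), and Ppia without vehicle F1 or M2 or BLZ945 F2 or M1 (-0.31 to -0.29). It held in 8 of 8 fits for Pf4, Mmp9, Tmem176a, Gabarap, Cotl1 and Rn18s-rs5. With length-dependent size factors Pf4 stood at -0.27 (adjusted p = 0.528), Tmsb4x at -0.21 (adjusted p = 0.222), Tmem176b at -0.32 (adjusted p = 0.0764), Gabarap at -0.27 and Cotl1 at -0.22, none of which passed, while Mmp9 (-1.09), Tmem176a (-0.52), Ppia (-0.34) and Ly6e (-0.58) did. The call of Ly6e was lost without a filter on low counts. In BLZ945 M2 Mmp9 was lower than in the other 3 spared libraries, and in BLZ945 F2 Tmem176a was higher.

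Chemokines and secreted proteases held single calls. Of 22 chemokine genes kept, 1 rose, 1 fell (Pf4) and the median was -0.05. Ccl12, a ligand of CCR2, had 6768, 8412, 5897 and 7909.6 in vehicle and 15670.0, 12789, 13430.1 and 15305 in spared cells and rose (0.98 ± 0.18, adjusted p = 2.34e-05). Ccl7 (0.73 ± 0.25, adjusted p = 0.164), another ligand of CCR2, and Ccl24 (-0.60 ± 0.25, adjusted p = 0.356), a ligand of CCR3, did not overlap between the groups but were not called, and Ccl8 overlapped (-0.32 ± 0.30, adjusted p = 1.0). Of 22 extracellular proteases and inhibitors, Mmp9 fell and 0 rose, with a median of 0.42. Cystatin C, Cst3, the inhibitor with by far the most counts, stood at 167783 to 194819 in vehicle and 140630.2 to 169541 in spared cells (-0.16 ± 0.16, adjusted p = 1.0).

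Most of the mRNAs with the highest counts were not called. Apoe, the lipid carrier, had 791504, 753156, 796913 and 727494 in vehicle and 859449, 1011493, 889210.1 and 936642 in spared cells and Lyz2, lysozyme, 245268 to 285930.0 and 292796 to 405565. Both were higher in every spared library, but neither was called (Apoe 0.27 ± 0.10, adjusted p = 0.202, and Lyz2 0.38 ± 0.13, adjusted p = 0.127). Cd74, the MHC class II invariant chain (0.17 ± 0.18, adjusted p = 1.0), the C1q chains C1qa (-0.12 ± 0.09, adjusted p = 0.918), C1qb (0.04 ± 0.11, adjusted p = 1.0) and C1qc (0.06 ± 0.12, adjusted p = 1.0), beta-2-microglobulin, B2m (-0.08 ± 0.09, adjusted p = 1.0), and the selenium carrier Selenop (0.00 ± 0.10, adjusted p = 1.0) overlapped between the groups. So did the adaptors Fcer1g (-0.21 ± 0.08, adjusted p = 0.247) and Tyrobp (-0.11 ± 0.07, adjusted p = 0.89), which carry signals of Fc receptors and TREM2.

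Rac1, a GTPase of actin remodelling, had the smallest standard error of the abundant genes, with 19413, 18450.3, 17880.1 and 17577 in vehicle and 17350.3, 17313, 18600.4 and 18178 in spared cells (-0.04 ± 0.06, adjusted p = 1.0), so that the 95% interval of the fold was 0.896 to 1.06. Arf1 (0.03 ± 0.07, adjusted p = 1.0), Cnbp (-0.01 ± 0.07, adjusted p = 1.0) and Cdc42 (-0.12 ± 0.07, adjusted p = 0.827) had similar errors. Of the abundant genes, 47 were both called and shown to differ by less than 2-fold, 24 were called only, and 394 were neither called nor shown to differ by less than 2-fold.

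Many pathways of macrophages held 0 calls. They were glycolysis and the pentose phosphate pathway (median log2 fold change 0.03), cholesterol synthesis (0.23), lipid uptake, storage and efflux (-0.01), ubiquitin and proteasome (-0.08), MHC class II (0.16), MHC class I (0.04), the interferon response (0.14), inflammatory cytokines and NF-kB feedback (-0.04), complement (0.06), Fc, Toll-like and pattern receptors (0.17), macrophage transcription factors (-0.01) and the circadian clock (0.12). Over all genes with an adjusted p, 0.484% were called higher and 0.477% lower, so 0 calls in lists of this size say little. Over these 12 lists together, 365 genes were kept, of which 43 had an unadjusted p under 0.05 by DESeq2 and 40 by edgeR, and edgeR called 0 as well. Of all 13724 genes kept, 1109 had such a p by DESeq2 and 954 by edgeR. The list with the most members at such a p was that of Fc, Toll-like and pattern receptors, at 12 of 37 genes by DESeq2. In cholesterol synthesis all 8 abundant members were positive. Its share of counts overlapped, at 0.0743 to 0.0971% in vehicle and 0.0854, 0.0723, 0.124 and 0.140% in the BLZ945 mice. Only BLZ945 M1 and M2 lay above the vehicle range, and the list median was 0.04 without BLZ945 M2. The lipid list took 4.23 to 4.53% of counts in vehicle and 4.75 to 5.36% in spared cells. Most of these counts were of Apoe alone, and 14 of the 30 members kept were positive. The higher share is therefore not one of the list as a whole. A list with 0 calls is not shown to be the same in both groups.

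**Figure D5:**
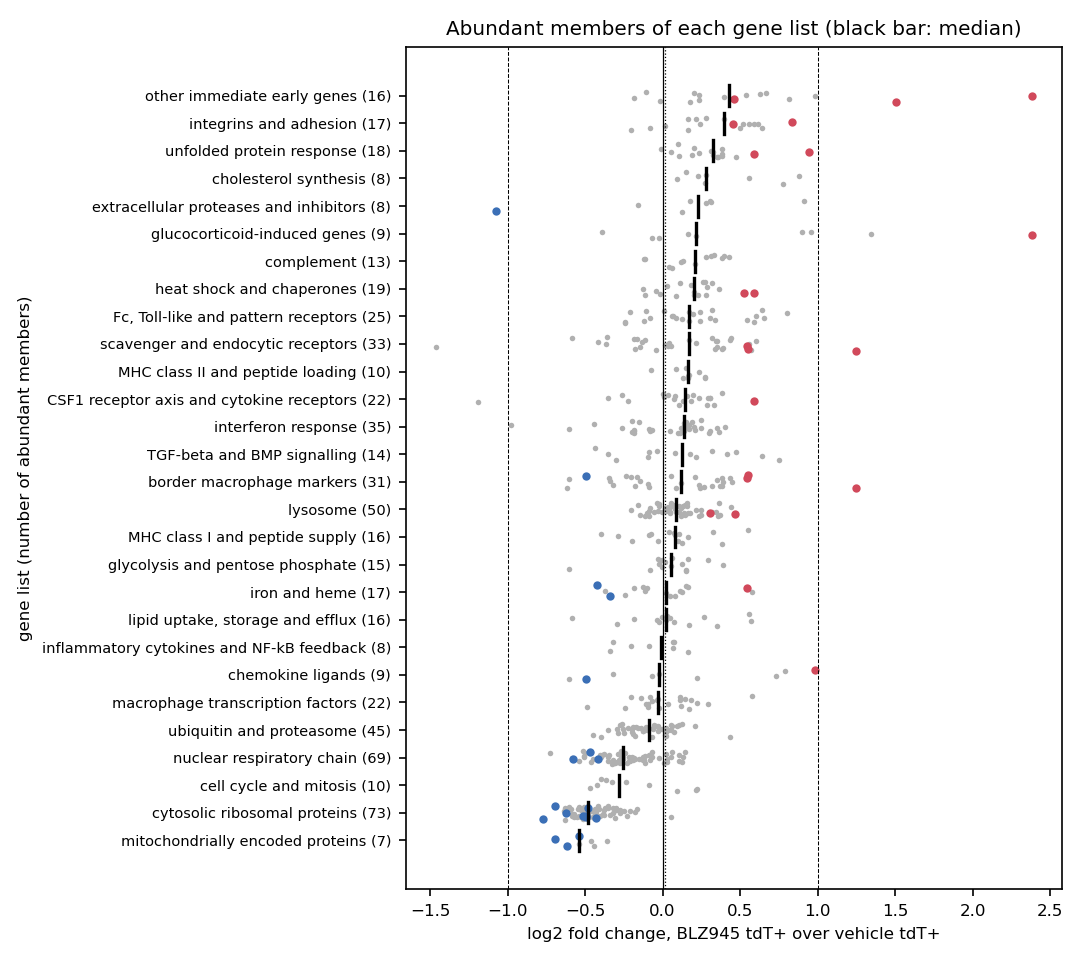
Each point is 1 abundant gene of the list named on the y axis, with the number of abundant members in brackets, at its log2 fold change of BLZ945 tdT+ over vehicle tdT+ cells (x axis). Black bars are medians, red and blue points are genes called higher and lower, the dashed lines mark a 2-fold change and the dotted line the median of all abundant genes. Ribosomal, mitochondrially encoded and nuclear respiratory chain genes lie mostly left of 0 and the unfolded protein response and integrin lists mostly right of 0.

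Genes with few counts gave large fitted changes that rest on little data. Of 45 called genes with a mean under 100, 38 had 0 counts in every library of 1 group, 19 of them lower and 19 higher in spared cells. Of these 38, 20 were seen in all 4 libraries of the other group, 14 in 3, 2 in 2 and 2 in 1. Against a floor of 3 counts summed over the 4 libraries, the mitotic genes Cenpe and Bub1b, at 0 in every spared library, were at least 244-fold lower and at least 205-fold lower. Bub1 was at least 41.6-fold lower and Rrm2, a subunit of ribonucleotide reductase, at least 78.4-fold lower, each seen in 3 vehicle libraries. The floor covers counting error only and not the spread among mice, and edgeR called none of these genes. The call of Bub1 was lost in the fit of the 8 tdT+ libraries alone and with the letter of the mouse label as covariate. Cenpe, Bub1b, Bub1 and Rrm2 were the 4 calls among 50 cell cycle genes kept. The list median was -0.46 and the share of counts was 0.124 to 0.131% in vehicle and 0.0985 to 0.108% in spared cells. The abundant cell cycle genes Cdk4 (-0.37 ± 0.14, adjusted p = 0.271) and Tubb5 (-0.24 ± 0.20, adjusted p = 0.964) were not called.

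Further calls of genes with few counts were of growth factors and adhesion molecules. Tgfb2, the only call among 33 genes of TGF-beta and BMP signalling, had 201, 40.6, 208 and 162 in vehicle and 0 in every spared library, at least 211-fold lower. Itgb3, the integrin beta3 chain, was at least 89.0-fold lower against the same floor and was seen in 3 vehicle libraries. edgeR called neither Tgfb2 nor Itgb3. Ptn (pleiotrophin) had 338, 129.7, 275 and 97.3 in vehicle against 1086, 410.1, 534 and 608 in spared cells (1.65 ± 0.45, adjusted p = 0.0285) and was the call among 20 growth factors kept. Its call was lost without vehicle F2 or M2 and without BLZ945 F1, M1 or M2 (1.30 to 1.74).

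Markers of other cell types were detected and in part differed between the groups. The 9 neuron markers summed to 648 to 875 normalised counts in vehicle and 1441 to 2155 in spared cells, with Meg3, a maternally expressed long noncoding RNA, as the 1 call and as the 1 call of the 18 imprinted genes kept. Without Meg3 the other neuron markers summed to 418 to 732 in vehicle and 341 to 552 in spared cells and overlapped, and the median log2 fold change of the neuron markers kept was -0.02. The 8 B cell markers summed to 7611 to 13528 and 5382 to 6503. Ighm, the immunoglobulin mu heavy chain, fell from 9191, 6693, 9768 and 9419 to 6128, 5826, 5134 and 5120.1 (-0.66 ± 0.13, adjusted p = 0.000222), Cd79b fell too, and Pax5 was at 0 in all 8 libraries. The 9 microglia markers summed to 68986 to 104118 and 102639 to 134802, with a small overlap and 0 called. Their log2 fold changes ran from 0.05 (Gpr34) to 1.06 (Sall1), with a median of 0.55 against 0.03 over all genes. Monocyte markers summed to 1613 to 4009.9 and 931 to 2146 and overlapped, with Ly6c2 lower, and Chil3 and Vcan at 0. Sums of oligodendrocyte (4327 to 6626 and 5416 to 12632), astrocyte (803 to 1526 and 1217 to 3007), leptomeningeal fibroblast (2489.8 to 6412 and 4094 to 5259), dendritic cell (5569.6 to 10849 and 7137 to 8307), T and NK cell (2745 to 3578 and 1470.0 to 3120.4) and red blood cell markers (54.1 to 8778 and 417 to 15883) overlapped. In 3 of these sets 1 marker was called lower, with 0 counts in every spared library. In vehicle Aqp4, the astrocyte water channel, had 1.98 to 197, the chemokine receptor Ccr7 0 to 74.2 and the cytotoxic granule gene Nkg7 0 to 45.0 normalised counts. Most of the dendritic cell sum came from Siglech (2444 to 4162 and 4448 to 6286), also a microglia marker, and Cd209a (2667 to 5954 and 599 to 3014). Most of the T and NK cell sum came from Cd4 (2551 to 3578 and 1470 to 3113). These 2 sums therefore say little on such cells. Neutrophil, mast cell, endothelial and pericyte sums did not exceed 383, and choroid plexus and ependyma sums ran from 149.6 to 5712 and 134 to 6223. The part of these cells in the differences above was not tested.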

How the data were processed

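Per the labels, total RNA of sorted cells was amplified by a low-input SMART-Seq protocol. Per the file headers and the submitters' processing notes, the authors obtained the deposited values with bcl2fastq 2.20, STAR 2.7.11a and featureCounts 2.0.6 as raw counts per gene, over exons of GENCODE M33 (GRCm39, filtered, with tdTomato added), without strand or multi-mapping reads, and did not pool replicates. Of 12 columns, 11 were matched by the whole library name and 1, of vehicle, by its library number, as its mouse label (M1) is that of another vehicle column (0 left over). PCR-amplified reads are not independent molecules, so the floor of 3 counts covers counting error only.

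Size factors, log2 fold changes (not shrunken) and Wald tests came from DESeq2 1.42.0 in R 4.3.3, with all 12 libraries and the group as the only term, after a filter of at least 10 counts in at least 4 libraries. A gene was called at a p of 0.05 or less after Benjamini-Hochberg adjustment, and 91 genes without an adjusted p were not counted. The study's rule added a shrunken change of at least 1 (log2, apeglm 1.24.0). DESeq2's lessAbs test gave the genes shown to differ by less than 2-fold. edgeR 4.0.16 (quasi-likelihood), other size factors, no filter, the 8 tdT+ libraries alone, a replicate block and leaving out each library were alternatives, and the scripts were tested on simulated data. No pair of libraries agreed within sampling noise (chi-square per degree of freedom of at least 48.4 within a group).

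Named genes are the called genes among the most abundant, called list members, and uncalled genes of the same lists or of the highest counts and smallest errors. Members, lists, the abundance limit of 1000 and named genes were chosen with earlier results of these data known. Promoter sequences are from RefSeq (GRCm38.p6) and were searched on both strands. A few called genes are not reported here by name.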

Additional observations from a re-analysis of the deposited data

Results flagged for a closer look

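In 12 of 299 groups of 4 libraries, over the named genes, library measures and list shares, 1 library lay far from the other 3, and chance alone gives about 5% of such groups. Among spared cells, BLZ945 M1 was the library apart for Jun (11377 normalised counts against 7364 to 7835), for Cox6b1 (3598 against 4209 to 4285), for Ccl24 (5054 against 3325 to 3577) and for the share of scavenger and endocytic receptors (2.19% against 1.93 to 1.94%). BLZ945 F2 stood apart for Tmem176a (13363 against 10774 to 10918) and for the share of circadian clock genes (0.0340% against 0.0419 to 0.0434%). BLZ945 M2 stood apart for Mmp9 (5619 against 6935 to 7205) and for the share of MHC class I genes (2.05% against 1.85 to 1.88%). Among vehicle cells, F2 stood apart for Rps9 (8369 against 10225 to 10455), for Rpl32 (9700.5 against 11763 to 11970) and for Vcam1 (19149.5 against 11907 to 13051), and M2 for the share of chemokine genes (0.498% against 0.417 to 0.420%).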

How the results depend on the processing

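Signs were compared under the alternatives for most genes named in the report, and no called gene among them changed sign. Signs of the other called genes were not compared. The number of calls changed. Against 131 genes called in the report, edgeR called 9 in all, the fit without a filter 256, the fit of the 8 tdT+ libraries alone 325 and the fit with a replicate block 389, and these held 9, 129, 116 and 99 of the 131. The 23 genes of the study's rule became 7, 45, 54 and 58 in the same order, and 67 with unshrunken changes. The 71 abundant calls became 7, 113, 224 and 204, and the 62 of these under 2-fold became 2, 103, 211 and 191. Leaving out 1 library gave 104 to 190 genes called, 18 to 34 by the study's rule, 42 to 100 abundant calls, 32 to 84 of these under 2-fold, and 2802 to 2958 abundant genes shown to differ by less than 2-fold. The abundant calls were fewest without vehicle F1 (42), M1 (44) or M2 (42). An abundance limit of 300 gave 82 calls and one of 3000 gave 56. Length-dependent size factors, chosen after seeing the data, gave 117 genes called and 59 abundant calls. The shared labels do not pair the mice: vehicle and BLZ945 mice are different animals, and deviations of mice with the same label correlated at 0.03, 0.16, 0.22 and 0.12. Among the genes named in the report, the block lost the calls of Vcam1, Cd84, Uqcr10, Bub1, Rrm2 and Itgb3. The fit without a filter lost those of Ly6e and Rps29. A difference of the change between M and F mice was called in 0 genes by edgeR (621 at an unadjusted p under 0.05) and in 70 by DESeq2 (852 unadjusted), 9 of them abundant. With 4 mice a group, changes under about 20% in abundant genes, and most changes under 2-fold in genes under 100 counts, could not be called. The cause of each of these shifts was not tested.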
